A study of Homo sapiens with 16 samples.

Results

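The AP-1 transcription factor genes FOS, FOSB, FOSL1, FOSL2, JUN, JUNB, JUND, BATF and BATF3 were read from the deposited table by the symbols of their Ensembl identifiers, which gave 9 of 62700 genes. All 9 passed the filter on low values that was used for the tests. The libraries came from OCI-AML3, an established cell line of acute myeloid leukemia (AML), 1 line cultured without other cells. Untreated cells gave 4 libraries. Cells taken after 3 h with a compound gave 3 libraries each for ATRA, AM80, ATRA with GSK-LSD1 and MB3, and AM80 with GSK-LSD1 and MB3. For cell lines the study's methods state a dose of 0.1 µM for either retinoid and for GSK-LSD1, and 100 µM for MB3. ATRA is the natural polyene agonist of all retinoic acid receptors, and AM80 (tamibarotene) is a synthetic aromatic benzoic acid with an amide link that favours the receptor RARA. GSK-LSD1 inhibits the histone demethylase LSD1 and MB3 the acetyltransferase GCN5. No group received the inhibitors without a retinoid, so every value for them is a difference on top of ATRA or AM80. In these libraries of bulk RNA, fewer expressing cells and less RNA per cell cannot be told apart.

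AP-1 is not 1 protein but a set of dimers of basic leucine zipper proteins. FOS proteins cannot pair with each other and bind DNA only beside a JUN protein, whereas JUN proteins also pair among themselves, and BATF proteins pair with JUN and lack a transactivation domain. The dimers bind the sequence TGACTCA, and with ATF partners the related TGACGTCA. FOS, FOSB, JUN and JUNB are classic immediate early genes, transcribed within minutes of a stimulus, and AP-1 factors are known to take part in monocytic maturation.

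The RefSeq promoter table of GRCh38.p14 (250 bases before to 50 bases after each start) held 7 of the 9 genes. FOSL1 and BATF3 were not among them. Both strands were searched for the AP-1 site TGACTCA, the cyclic AMP element TGACGTCA, its core TGACGT (which every full element also contains), the variant TGACATCA known from JUN, TATAAA and the retinoid receptor half-site AGGTCA. The core TGACGT was present in FOS, FOSB, FOSL2 and JUND, 4 of 7 genes, against 7.98% of 35116 promoters of the same length. The full element TGACGTCA was found in JUND (1.85% of all promoters), and TGACATCA in JUN (2.61%). TGACTCA was found in FOSL2, starting 5 bases into the transcript (4.95%). TATAAA was found in FOS, FOSB and JUNB (11.5%), and AGGTCA in 0 of 7 (13.8%). These matches are letters in a window and were not tested for binding. The stretches below belong to the 6 genes of the promoter table that were called in at least 1 comparison, read 5′ to 3′ on the gene's strand up to the next annotated exon base in the window, with the matches in capitals. The FOSL2 stretch lies within the annotated gene, between annotated exons. For JUN, whose annotated exon covers the window, only the site is shown, and the BATF window held none of the sequences searched.
FOSL2, chr2:28392608-28392801, plus strand: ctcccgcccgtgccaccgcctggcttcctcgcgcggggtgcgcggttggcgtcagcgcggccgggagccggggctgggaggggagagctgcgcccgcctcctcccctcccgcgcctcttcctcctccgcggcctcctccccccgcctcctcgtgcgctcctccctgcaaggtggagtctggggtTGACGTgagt
FOS, chr14:75278578-75278773, plus strand: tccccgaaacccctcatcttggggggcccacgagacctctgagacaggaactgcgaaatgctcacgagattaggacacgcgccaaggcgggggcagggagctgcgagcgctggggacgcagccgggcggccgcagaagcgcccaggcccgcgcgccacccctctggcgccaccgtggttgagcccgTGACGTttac
FOSB, chr19:45467746-45467994, plus strand: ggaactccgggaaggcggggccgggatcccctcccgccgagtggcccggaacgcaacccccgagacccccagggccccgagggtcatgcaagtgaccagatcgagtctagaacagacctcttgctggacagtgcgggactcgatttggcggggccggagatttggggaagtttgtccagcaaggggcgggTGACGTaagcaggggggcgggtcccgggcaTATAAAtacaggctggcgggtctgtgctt
JUND, chr19:18281623-18281872, minus strand: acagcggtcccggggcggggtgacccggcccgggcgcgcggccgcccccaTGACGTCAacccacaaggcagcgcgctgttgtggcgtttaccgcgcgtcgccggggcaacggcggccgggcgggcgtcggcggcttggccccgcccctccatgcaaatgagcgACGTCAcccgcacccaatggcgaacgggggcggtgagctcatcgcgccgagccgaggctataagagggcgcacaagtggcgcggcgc
JUN, chr1:58784096-58784125, minus strand: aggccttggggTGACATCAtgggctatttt
BATF, chr14:75522219-75522424, plus strand: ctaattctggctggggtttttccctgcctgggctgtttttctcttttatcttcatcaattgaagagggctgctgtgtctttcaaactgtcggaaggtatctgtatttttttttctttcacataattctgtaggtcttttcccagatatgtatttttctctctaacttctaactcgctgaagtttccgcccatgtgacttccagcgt
The core lay 64 bases before the start in FOS, 60 in FOSB and 66 in FOSL2, so at nearly the same distance in the 3 FOS family genes. In JUND the full element lay 200 bases before the start and a core on the opposite strand 87 bases before it.

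The number of reads assigned to genes ranged from 11963898 to 33789718 over the 16 libraries. Values are DESeq2-normalized counts, that is, reads divided by a size factor of the library. A gene was called higher or lower when limma, fitted on log2(normalized count + 1) of 14643 genes in all 16 libraries, gave a Benjamini-Hochberg adjusted p under 0.05 and a fold past 1.5. Pairs of replicates differed by a chi-square per degree of freedom of 2.75 to 25.9, and untreated replicate 4 and AM80 replicate 2 stood apart (between 16.01 and 25.9 in each of their pairs, 6.23 or less in all others). Untreated replicate 4 was the highest untreated library for 7 of the 9 genes and the lowest for FOSL2, and AM80 replicate 2 was the lowest AM80 library for 8 of the 9. The labelled cell type was matched by its markers: LYZ lay between 6703 and 12446 normalized counts and CD33 between 1254 and 1602, while CD3D, CD2, MS4A1, HBA1 and PF4 had no read in any library. MPO, a granule enzyme of immature myeloid cells, was low (23.9 to 53.2).

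Across the 9 genes, the retinoids alone lowered FOS, FOSL1, FOSL2 and JUN and raised JUND. Adding GSK-LSD1 and MB3 raised JUN, FOSL1 and FOSB above the retinoid level and lowered BATF, while FOSL2 and FOS did not pass the limits there. With ATRA, 1 member was called higher (6.52% of all genes tested were) and 4 were called lower (2.94% of all genes). With AM80 the counts were also 1 higher (6.41% of all genes) and 4 lower (3.76%). The median log2 fold change of the 9 members was -0.43 with ATRA and -0.30 with AM80, against -0.02 and -0.01 over all genes tested. Both comparisons use the same untreated libraries.

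**Figure D1:**
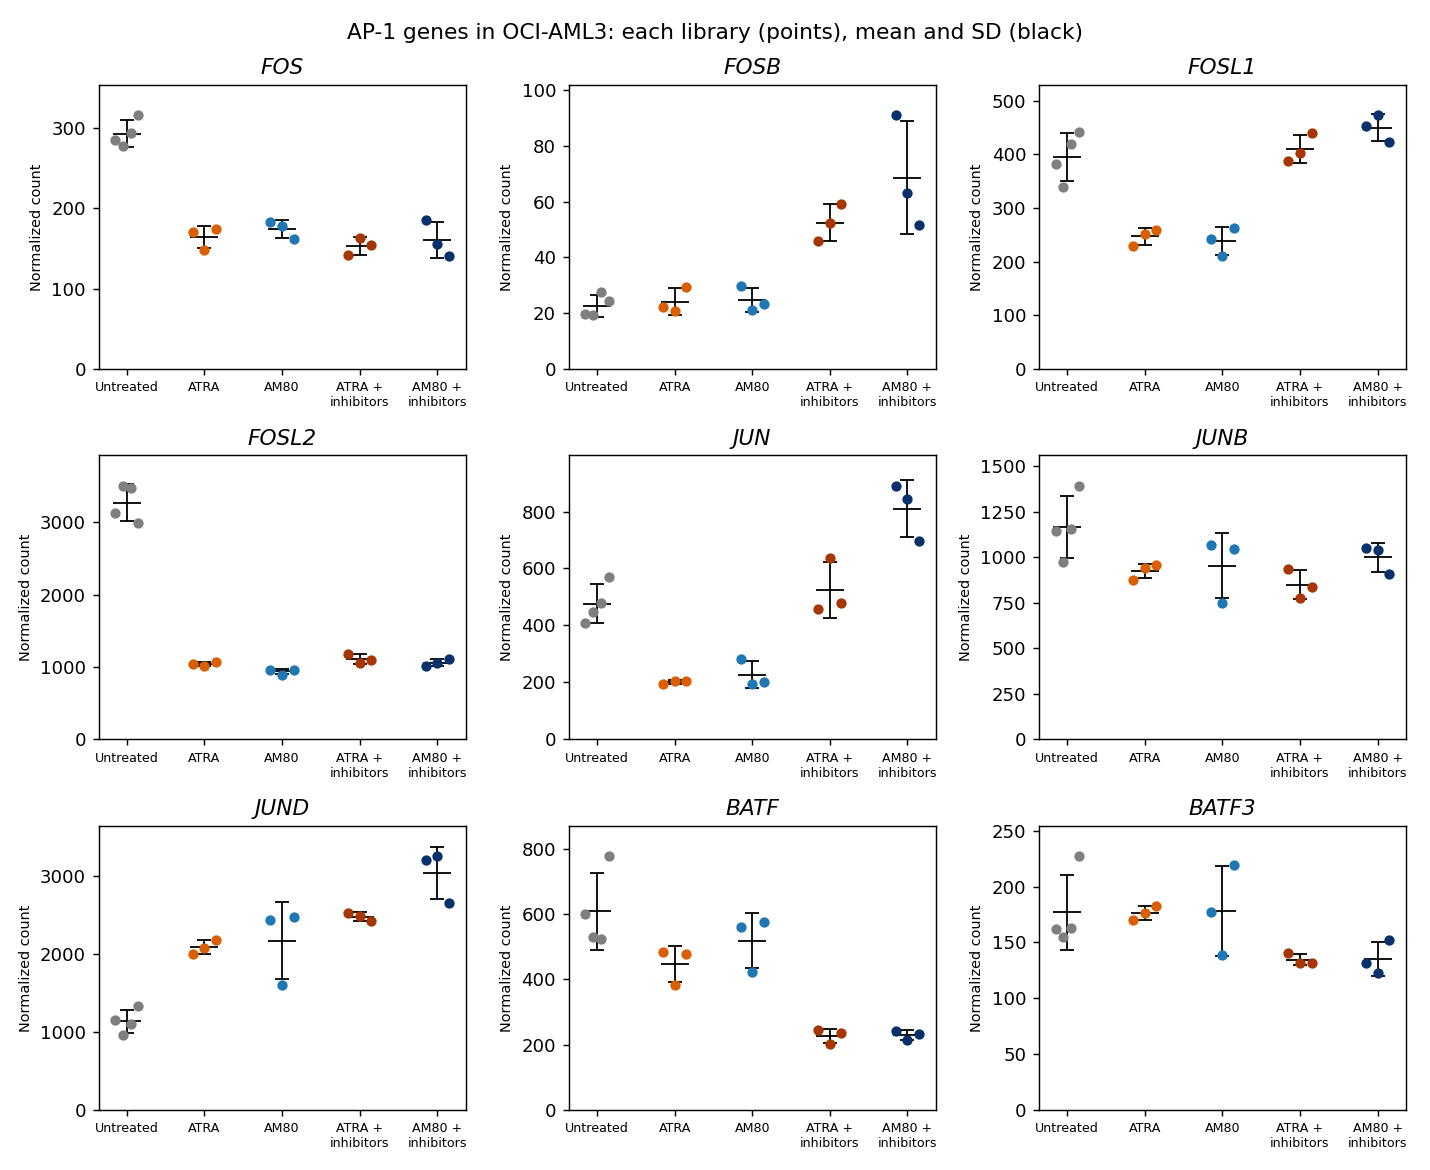
Normalized count (y axis, linear, from 0) of each AP-1 gene in every library, by treatment (x axis), with points for libraries and black bars for the mean and SD. FOSL2 fell from 2988 to 3505 in untreated cells to 1181 or less in every treated library, and JUN was low only in the libraries with a retinoid alone.

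FOSL2, which encodes FRA2, showed the largest change of the 9 genes with either retinoid. Its level was 3132, 3505, 3470.1 and 2988 normalized counts in untreated replicates 1 to 4. It was 1043, 1011 and 1075 with ATRA, and 962, 895 and 956 with AM80. The groups did not overlap, and the lowest untreated library was well above the highest treated one. The fold change was 3.13-fold lower with ATRA (log2 fold change -1.65 ± 0.07 (SE), limma adjusted p = 6.2e-14) and 3.48-fold lower with AM80 (-1.80 ± 0.07, adjusted p = 1.5e-14). With the inhibitors added, the level was 1181, 1052 and 1096 beside ATRA and 1009.6, 1059.7 and 1105 beside AM80. Adding them moved FOSL2 by a log2 fold change of 0.09 beside ATRA (95% confidence interval -0.06 to 0.24) and 0.17 beside AM80 (0.02 to 0.33, adjusted p = 0.065), so the intervals hold no change past the fold limit. An annotated transcript on the same strand and an antisense RNA overlap FOSL2, but both lay at means of 2.08 normalized counts or less in every group.

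FOS, the founding member and dimer partner of JUN, fell in all 4 treated groups. It measured 284, 278, 294 and 316 normalized counts in untreated cells, 171, 148 and 174 with ATRA, and 183, 178 and 162 with AM80. No treated library reached the lowest untreated one. The decrease was 1.78-fold with ATRA (log2 fold change -0.83 ± 0.10, limma adjusted p = 2.8e-06) and 1.68-fold with AM80 (-0.75 ± 0.10, adjusted p = 1.1e-05). With the inhibitors, FOS measured 142, 163 and 155 beside ATRA and 185, 155 and 140.3 beside AM80. These libraries overlapped those with the retinoid alone, and the difference from it was -0.10 (-0.33 to 0.13) beside ATRA and -0.13 (-0.36 to 0.11) beside AM80.

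FOSL1, which encodes FRA1, fell with the retinoids and was back near the untreated level with the inhibitors. Untreated cells had 382, 339.9, 419.7 and 441 normalized counts. Libraries with ATRA had 229, 252 and 259, and those with AM80 had 241, 210.2 and 262. The groups did not overlap, with a 1.60-fold decrease for ATRA (log2 fold change -0.67 ± 0.10, limma adjusted p = 2.0e-05) and a 1.66-fold decrease for AM80 (-0.73 ± 0.10, adjusted p = 6.1e-06), both close to the fold limit. Without untreated replicate 4 and AM80 replicate 2, the change with AM80 was -0.59, just past the limit. The inhibitors brought FOSL1 to 389, 403 and 439.9 beside ATRA and to 453, 473 and 424 beside AM80. This was 1.66-fold (adjusted p = 1.1e-05) and 1.89-fold (adjusted p = 7.8e-07) above the retinoid alone. Against untreated cells the combinations differed by 0.06 (-0.15 to 0.26) and 0.19 (-0.01 to 0.39), with overlapping libraries.

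FOSB was the least abundant member, with 14 to 83 reads per library. Its level was 19.5, 19.4, 27.4 and 24.4 normalized counts in untreated cells, 22.2, 20.7 and 29.5 with ATRA, and 29.7, 21.2 and 23.1 with AM80. These 3 groups overlapped, and the retinoids changed FOSB by 0.08 (-0.36 to 0.53) and 0.12 (-0.33 to 0.56). With the inhibitors it reached 45.9, 52.2 and 59.1 beside ATRA and 91, 63.2 and 51.5 beside AM80. Every combination library lay above every other library, and FOSB was 2.14-fold higher than with ATRA alone (limma adjusted p = 5.4e-04) and 2.66-fold higher than with AM80 alone (adjusted p = 5.4e-05). ERCC1, which overlaps FOSB on the other strand, stayed between group means of 979 and 1125, and the strand setting of the counting is not given in the sources used here.

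JUN moved in opposite directions under the retinoids and under the added inhibitors. It measured 409, 446, 479.5 and 571 normalized counts in untreated cells. The values were 194, 205 and 204 with ATRA and 280.4, 196 and 203 with AM80, all below the lowest untreated library. JUN was 2.35-fold lower with ATRA (log2 fold change -1.23 ± 0.14, limma adjusted p = 4.5e-07) and 2.11-fold lower with AM80 (-1.08 ± 0.14, adjusted p = 2.8e-06). With the inhibitors it rose to 456, 636 and 477 beside ATRA and to 890.1, 844 and 697 beside AM80. Relative to the retinoid alone this was 2.57-fold beside ATRA (1.36 ± 0.14, adjusted p = 3.2e-07) and 3.60-fold beside AM80 (1.85 ± 0.14, adjusted p = 5.3e-09). Against untreated cells, the ATRA combination differed by 0.13 (-0.15 to 0.41) with overlapping libraries, while every library of the AM80 combination lay above the untreated ones (0.77 ± 0.14, 1.70-fold, adjusted p = 6.8e-05). When libraries were scaled to their total reads, this last value fell to 0.58, just under the fold limit.

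JUND was the only member that rose with the retinoids alone. Untreated cells had 1146, 962, 1097 and 1327 normalized counts. ATRA libraries had 1996, 2077 and 2180.2, and AM80 libraries had 2426, 1604 and 2473. No treated library overlapped an untreated one, although AM80 replicate 2 lay far below the other AM80 libraries. JUND was 1.85-fold higher with ATRA (log2 fold change 0.89 ± 0.12, limma adjusted p = 8.9e-06) and 1.89-fold higher with AM80 (0.92 ± 0.12, adjusted p = 5.2e-06). With the inhibitors it stood at 2525, 2477 and 2414 beside ATRA and at 3204, 3246 and 2652 beside AM80, 2.19-fold and 2.68-fold above untreated cells. Every combination library lay above every library of its retinoid alone, yet the added change was below the fold limit: 0.25 (-0.02 to 0.52, adjusted p = 0.12) beside ATRA and 0.51 (0.24 to 0.78, adjusted p = 0.0039) beside AM80. The value beside AM80 depended on single libraries. It was 0.60 without AM80 replicate 1, 0.62 without AM80 replicate 3 and 0.60 without replicate 3 of the AM80 combination, all past the limit. It was 0.30 without untreated replicate 4 and AM80 replicate 2.

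JUNB, whose product often restrains JUN, passed the limits in 0 of the 9 comparisons. It measured 1142, 973, 1156 and 1392 normalized counts in untreated cells and lay between 748 and 1069 in all treated libraries. The groups overlapped except for ATRA and ATRA with the inhibitors, whose highest libraries were below the lowest untreated one. Its log2 fold changes against untreated cells were -0.32 with ATRA (limma adjusted p = 0.047), -0.30 with AM80 (adjusted p = 0.062), -0.45 with the ATRA combination (adjusted p = 0.0023) and -0.21 with the AM80 combination (adjusted p = 0.13), none past the fold limit. Scaled to total reads, the value for the ATRA combination was -0.60 and past it. The values for AM80 rested on single libraries: the AM80 change was -0.13 without AM80 replicate 2 and -0.04 without that library and untreated replicate 4 (limma adjusted p = 0.74), and that of the AM80 combination was -0.12 without untreated replicate 4. HOOK2, on the other strand over JUNB, lay between group means of 246 and 349 normalized counts.

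BATF, a partner of JUN proteins that also binds with interferon regulatory factors, fell when the inhibitors were added. Untreated cells had 599.6, 531, 526 and 778 normalized counts, ATRA libraries 483, 382 and 477, and AM80 libraries 562, 421 and 575. The AM80 libraries overlapped the untreated ones, and those with ATRA lay below them without passing the fold limit (log2 fold change -0.43, limma adjusted p = 0.020). The combination libraries had 245, 202 and 234 beside ATRA and 242, 213 and 232 beside AM80. All 6 lay below every other library, 1.96-fold below ATRA alone (-0.97 ± 0.14, adjusted p = 1.3e-05) and 2.24-fold below AM80 alone (-1.17 ± 0.14, adjusted p = 1.8e-06). Against untreated cells BATF was 2.65-fold and 2.62-fold lower.

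BATF3, best known from the development of cross-presenting dendritic cells, passed the limits in 0 of the 9 comparisons. It measured 162, 155, 163 and 227 normalized counts in untreated cells, 169.7, 176 and 182 with ATRA, and 177, 139 and 219 with AM80. With the inhibitors it lay at 141, 132 and 132 beside ATRA and 132, 122 and 152 beside AM80. All combination libraries were below all untreated ones, but the log2 fold change was -0.37 for both combinations (limma adjusted p = 0.029 and 0.033), under the fold limit. Without untreated replicate 4 both values were -0.25.

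**Figure D2:**
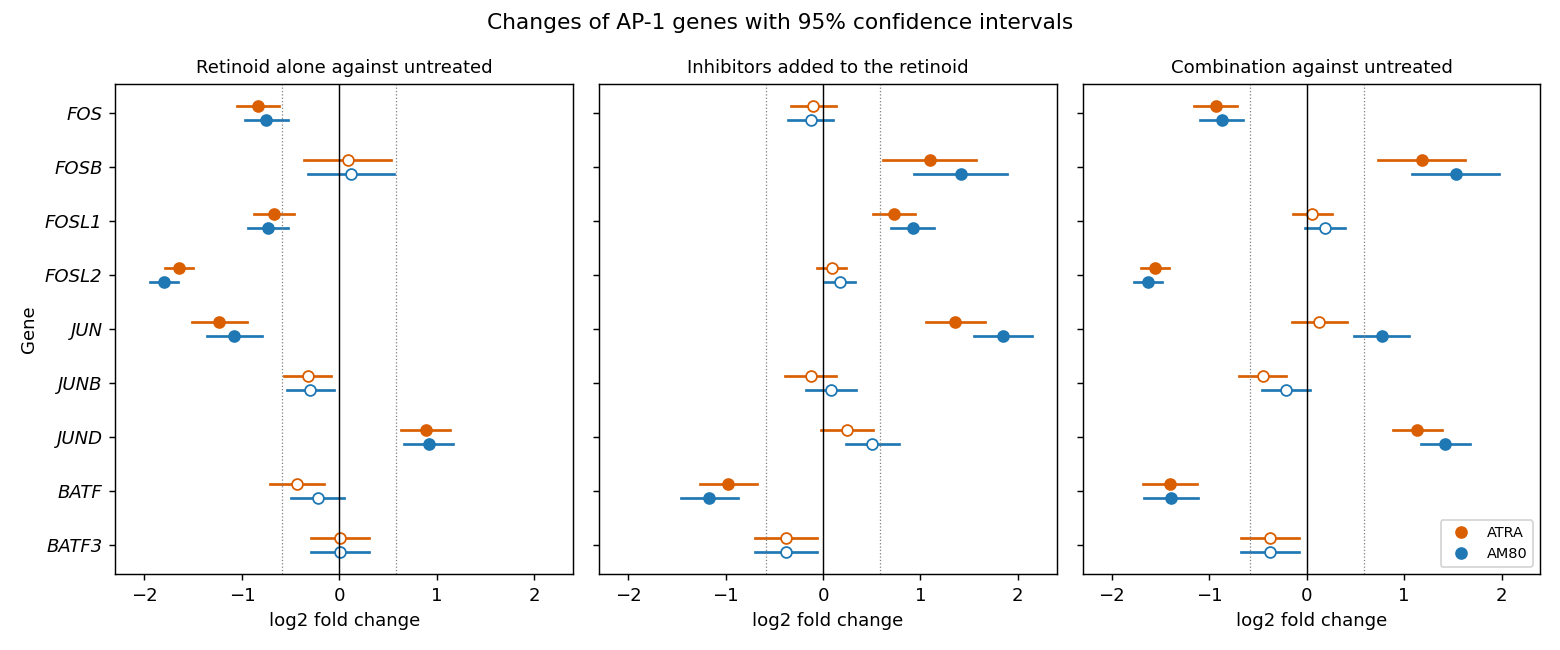
Log2 fold change (x axis) of the 9 AP-1 genes (y axis) with 95% confidence intervals, for each retinoid alone against untreated cells, for the inhibitors added to each retinoid, and for each combination against untreated cells. Filled points passed the adjusted p and fold limits (dotted lines at 1.5-fold). FOSL2 lay at -1.65 and -1.80 in the left panel and near 0 in the middle panel, while JUN lay at -1.23 and -1.08 on the left and at 1.36 and 1.85 in the middle.

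Counted over the members, adding GSK-LSD1 and MB3 to ATRA raised 3 of 9 (FOSB, FOSL1 and JUN), where 8.15% of all genes were called higher, and lowered 1 (BATF), where 11.4% were called lower. Beside AM80 the same genes were called, with 6.81% of all genes higher and 8.9% lower. Against untreated cells, the ATRA combination had 2 members higher (FOSB and JUND, with 14.2% of all genes) and 3 lower (FOS, FOSL2 and BATF, with 14.8%). The AM80 combination had 3 higher (FOSB, JUN and JUND, with 12.9% of all genes) and 3 lower (FOS, FOSL2 and BATF, with 13.1%). Without untreated replicate 4 and AM80 replicate 2, a setting chosen after seeing the data, the number of members called was the same in each of these comparisons and in those of the retinoids alone.

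To compare levels between genes, normalized counts were divided by the annotated exon length in kb. This length joins the exons of all annotated transcripts of a gene and can exceed that of the transcript expressed. The order of genes and the family shares depend on it, and the SD between libraries does not cover this. In untreated cells JUNB (641 ± 94.4 per kb, SD), BATF (621 ± 120.2) and JUND (608 ± 81.0) came first and did not differ beyond their spread. FOSL2 (457 ± 35.5), FOSL1 (209.7 ± 23.6), JUN (135 ± 19.6), FOS (90.5 ± 5.09), BATF3 (65.2 ± 12.4) and FOSB (4.08 ± 0.70) followed, each apart from the next by more than the SD of either. With AM80 and the inhibitors, JUND led alone at 1629 ± 178 per kb, followed by JUNB at 549 ± 43.6. FOSL1 (238 ± 13.1), BATF (234 ± 15.1) and JUN (229 ± 28.6) were then within their spread of each other, FOSL2 was at 148 ± 6.64, and BATF3 (49.9 ± 5.58) and FOS (49.5 ± 7.07) could not be separated. FOSB stayed last at 12.4 ± 3.65.

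Within the FOS family, the summed level per kb was 762 in untreated cells, 332 with ATRA and 315 with AM80. With the inhibitors it was 429 beside ATRA and 448 beside AM80, with an SD between 12.9 and 29.99 in each group. FOSL2 made up 60.0% ± 3.7 of this sum in untreated cells, 44.0% ± 0.9 with ATRA, 41.6% ± 0.7 with AM80, and 36.1% ± 2.5 and 33.0% ± 2.5 with the combinations. FOSL1 rose from 27.5% ± 3.0 to 39.4% ± 1.8 and 39.9% ± 2.4 with ATRA and AM80, and to 50.6% ± 1.9 and 53.2% ± 1.4 with the inhibitors. FOSL2 was thus the main FOS family transcript per length in untreated cells, and FOSL1 in both combinations.

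Within the JUN family, JUND's share per kb was 44.0% ± 0.9 in untreated cells, 66.5% ± 0.4 with ATRA, 66.3% ± 1.5 with AM80, and 68.4% ± 0.4 and 67.6% ± 0.5 with the combinations. JUNB fell from 46.3% ± 0.6 to 30.2% ± 0.4 with ATRA and 30.02% ± 0.9 with AM80 and to 24.0% ± 1.8 and 22.9% ± 0.6 with the combinations. JUN went from 9.75% ± 0.92 to 3.37% ± 0.08 and 3.70% ± 0.68 with the retinoids, and to 7.62% ± 1.48 and 9.50% ± 0.33 with the combinations. The summed level of BATF and BATF3 was 686 ± 132 per kb in untreated cells and 281 ± 24.2 and 284 ± 18.3 with the combinations, of which BATF held 82.3% or more in every group mean.

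**Figure D3:**
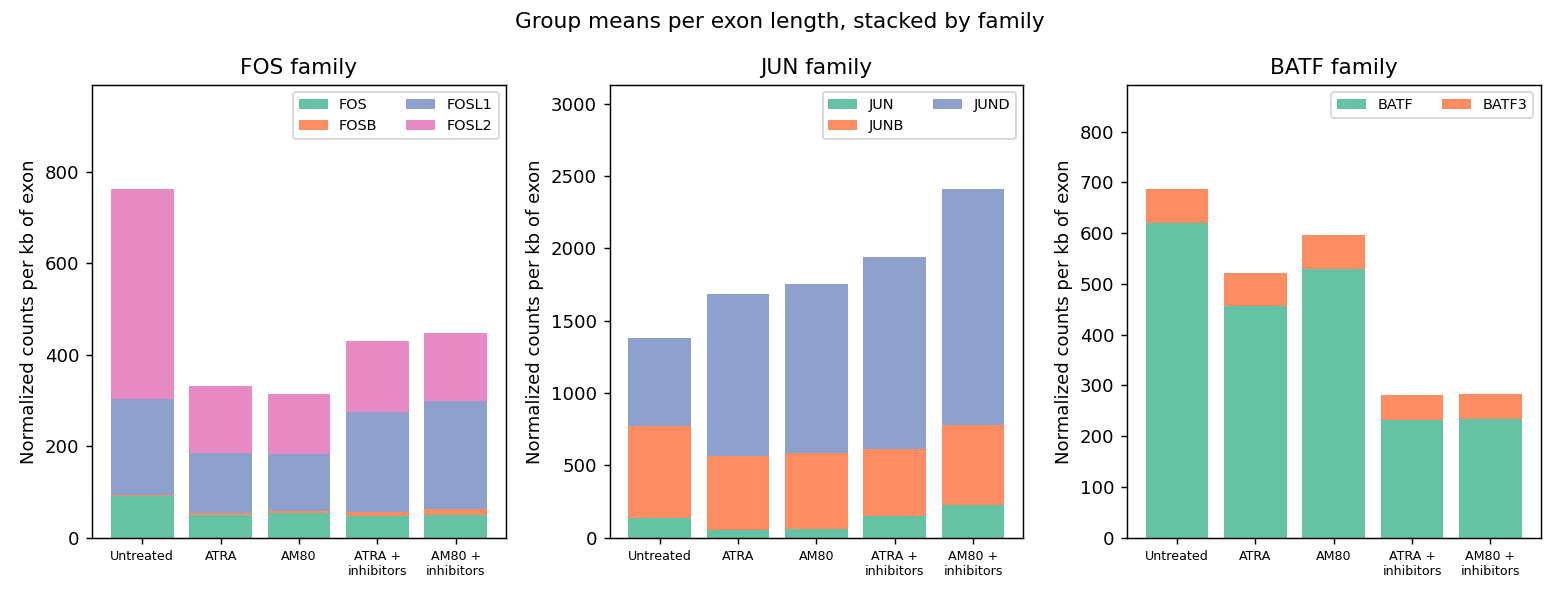
Group means in normalized counts per kb of exon (y axis, linear, from 0), stacked by gene within the FOS, JUN and BATF families for each treatment (x axis). The FOS family sum fell from 762 to 332 and 315 with the retinoids, mostly through FOSL2, and JUND took 66.3% or more of the JUN family in every treated group.

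ATRA and AM80 were compared directly at the same dose and time. This is 1 pair of compounds, tested without and with the inhibitors, and p-values were adjusted over all genes. Without the inhibitors, limma called 0 of 9 members (7 of 14643 genes, 0.0478%). FOSL2 alone had an unadjusted p under 0.05, with a log2 difference of AM80 over ATRA of -0.15 (-0.31 to 0.00, adjusted p = 0.35). The other differences lay between -0.06 for FOSL1 (-0.28 to 0.16) and 0.21 for BATF (-0.09 to 0.50), so that for all 9 genes the 95% interval excluded a 1.5-fold difference in either direction. edgeR and DESeq2 also called 0 members here, with 16 and 18 called over all genes.

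With the inhibitors, limma again called 0 of 9 members and 0 of 14643 genes (0%), with 2 members and 2656 genes at an unadjusted p under 0.05. edgeR called 0 genes and DESeq2 13, JUN among them. JUN showed the largest difference, with 697 to 890.1 normalized counts beside AM80 and 456 to 636 beside ATRA. The 3 libraries of each group did not overlap, and the log2 difference was 0.64 (0.34 to 0.94), 1.56-fold, with an adjusted p of 0.12 in limma. DESeq2 gave JUN an adjusted p of 0.015. Fitting only the 2 groups gave 0.00042 (limma), leaving out untreated replicate 4 gave 0.027, leaving out AM80 replicate 2 gave 0.034, and leaving out both gave 0.00059. Those 2 libraries are in neither group and act through the variance alone. Over all genes, these limma fits called 127, 86, 38 and 156 in the same order. The call for JUN therefore depended on the fit. Its log2 difference ranged from 0.57 to 0.64 over the other settings and from 0.55 to 0.79 with 1 library left out, in part under the fold limit. JUND differed by 0.29 (0.02 to 0.56, adjusted p = 0.25 in limma), JUNB by 0.24 (-0.02 to 0.50) and FOSB by 0.35 (-0.13 to 0.83). For FOSB the interval still holds a 1.5-fold difference. The other 5 genes lay between -0.07 and 0.13, and their intervals excluded a 1.5-fold difference, as did those of JUNB and JUND.

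The interaction, which asks whether the inhibitors changed a gene more beside AM80 than beside ATRA, was called for 0 of 9 members and 0 of all genes (0%) by limma, with 1 member and 2211 genes at an unadjusted p under 0.05. edgeR called 0 genes and DESeq2 6. The member was JUN, with an interaction of 0.49 (0.06 to 0.92, adjusted p = 0.28).

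**Figure D4:**
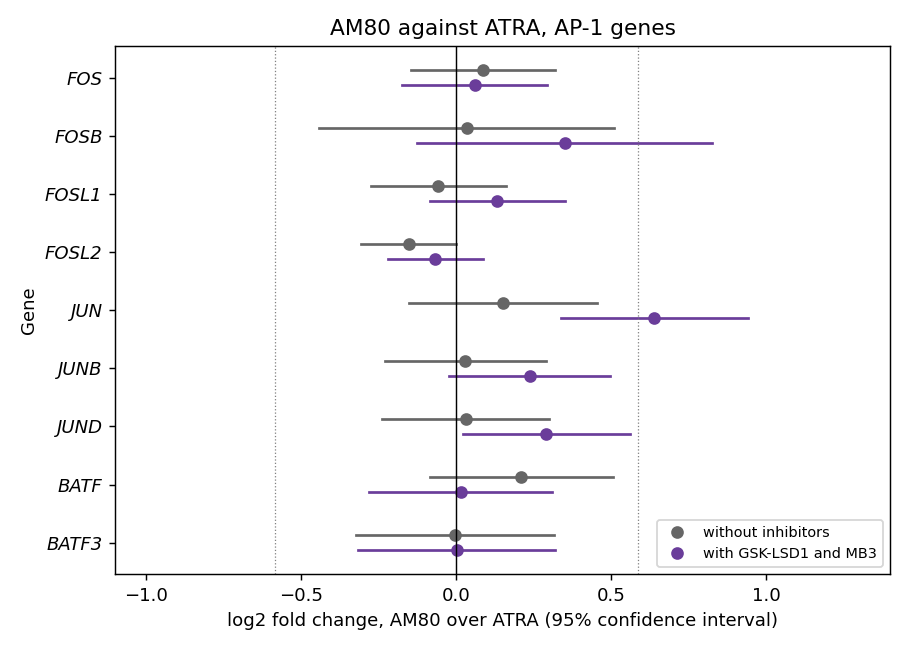
Log2 fold change of AM80 over ATRA (x axis) with 95% confidence intervals for the 9 AP-1 genes (y axis), without the inhibitors (grey) and with GSK-LSD1 and MB3 (purple). Dotted lines mark 1.5-fold. Without the inhibitors every interval stays inside the lines, and with them JUN lies at 0.64.

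The AP-1 proteins also pair with ATF and MAF proteins, and 10 of 12 listed dimer partners passed the filter. With the retinoids alone, 2 were called higher with ATRA (BATF2 and MAFF) and 3 with AM80 (ATF3 as well), and 1 was lower with AM80 (MAFK). MAFK spread widely with AM80, at 245, 376 and 437 normalized counts, against 478 to 603 in untreated cells. Whether its call depended on a single library was not tested. The shares of all genes were 6.52% higher and 2.94% lower with ATRA, and 6.41% higher and 3.76% lower with AM80. BATF2, a relative of BATF that is known as an interferon-induced gene, rose from a mean of 14.5 normalized counts to 284 with ATRA (log2 fold change 4.26, limma adjusted p = 2.2e-13) and 340 with AM80 (4.51, adjusted p = 7.8e-14). Adding the inhibitors lowered it to 111 and 121 (-1.38 and -1.47, adjusted p = 1.6e-05 and 8.9e-06), so BATF2 and BATF were both called lower there. MAFF, a small MAF protein without an activation domain, rose from 33.4 to 151 and 158 with the retinoids (2.26 and 2.32) and to 260.2 and 368 with the combinations (0.78 and 1.21 above the retinoid, adjusted p = 0.010 and 4.0e-04). MAFG, another small MAF, was not called with the retinoids alone and rose on adding the inhibitors (0.92 and 1.24, adjusted p = 2.9e-08 and 4.8e-10), and ATF7 likewise (0.75 and 0.65). In all, the inhibitors raised 4 partners and lowered 2 beside ATRA, and raised 6 and lowered 2 beside AM80. The shares of all genes called higher there were 8.15% and 6.81%, and those called lower 11.4% and 8.9%. The median log2 fold change of the list was 0.42 and 0.64, against -0.02 and -0.01 over all genes.

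The upstream list held kinases and transcription factors that drive FOS and JUN transcription or degrade their products, with 19 of 20 genes tested. With each retinoid, 0 of them fell (of all genes, 2.94% with ATRA and 3.76% with AM80) and 2 rose (6.52% and 6.41%). These were ELK3, a ternary complex factor at serum response elements (log2 fold change 0.74 and 0.83, limma adjusted p = 8.7e-08 and 1.4e-08), and RPS6KA1, which encodes the kinase RSK1 (0.64 and 0.64, adjusted p = 4.0e-07 and 3.9e-07). Adding the inhibitors changed 0 of 19 past the limits with limma beside either retinoid. Of all genes, 8.15% and 6.81% were called higher there and 11.4% and 8.9% lower. Without the fold limit, at a limma adjusted p under 0.05, 10 were higher and 2 lower beside ATRA. Beside AM80, 7 were higher and 4 lower. Over all genes, 7226 and 5778 of 14643 had such an adjusted p. An unadjusted p under 0.05 was found for 12 and 12 of the list, and for 8070 and 6959 of the 14643 genes.

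Textbook AP-1 targets were tested for 16 of 22 listed genes. Other regulators act on most of them too. With the retinoids alone, 3 rose with each (of all genes, 6.52% with ATRA and 6.41% with AM80). The median log2 fold change of the tested targets was -0.21 with either retinoid, against -0.02 and -0.01 over all genes. HBEGF, a growth factor, rose by 2.96 with ATRA and 2.80 with AM80 (limma adjusted p = 7.4e-16 and 1.8e-15), and CCL2, a monocyte chemokine, by 1.79 and 1.80 (adjusted p = 1.2e-10 and 1.0e-10). CXCL8 was the 1 target lower with ATRA (2.94% of all genes were), and 0 were lower with AM80 (3.76% of all genes). On adding the inhibitors, 6 targets rose beside each retinoid, and 2 fell beside ATRA and 1 beside AM80 (of all genes, 8.15% and 6.81% were called higher and 11.4% and 8.9% lower). CXCL8, the neutrophil chemokine interleukin-8, rose by 2.69 and 2.50, IL1B by 2.11 and 2.22, the urokinase receptor gene PLAUR by 1.90 and 2.36, and TNF by 1.76 and 1.94, with adjusted p-values of 4.8e-09 or less. On adding the inhibitors, the median over the tested targets was 0.20 beside ATRA and 0.34 beside AM80, against -0.02 and -0.01 over all genes.

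Other immediate early genes were tested for 17 of 21. With the retinoids, 4 rose and 3 fell with ATRA, and 5 rose and 1 fell with AM80. Over all genes, 6.52% rose and 2.94% fell with ATRA, and 6.41% rose and 3.76% fell with AM80. SGK1 rose by 2.05 and 2.19 and EGR3, at 75 reads or fewer, by 1.84 and 1.38. On adding the inhibitors, 4 rose and 2 fell beside ATRA and 6 rose and 2 fell beside AM80. The 2 that fell are 2 of 17 genes tested, where 11.4% and 8.9% of all genes were called lower, and 8.15% and 6.81% were called higher. EGR1, a zinc finger factor whose gene, like FOS, has serum response elements of its own, rose by 1.55 and 1.80 (limma adjusted p = 2.0e-07 and 2.5e-08). FOS, in contrast, did not pass the limits there (-0.10 and -0.13). PPP1R15A, which encodes GADD34, rose by 0.90 and 1.48 and SGK1 by a further 0.77 and 0.69. MYC fell by 0.72 and 0.94 on the log2 scale (adjusted p = 2.3e-07 and 6.6e-09).

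**Figure D5:**
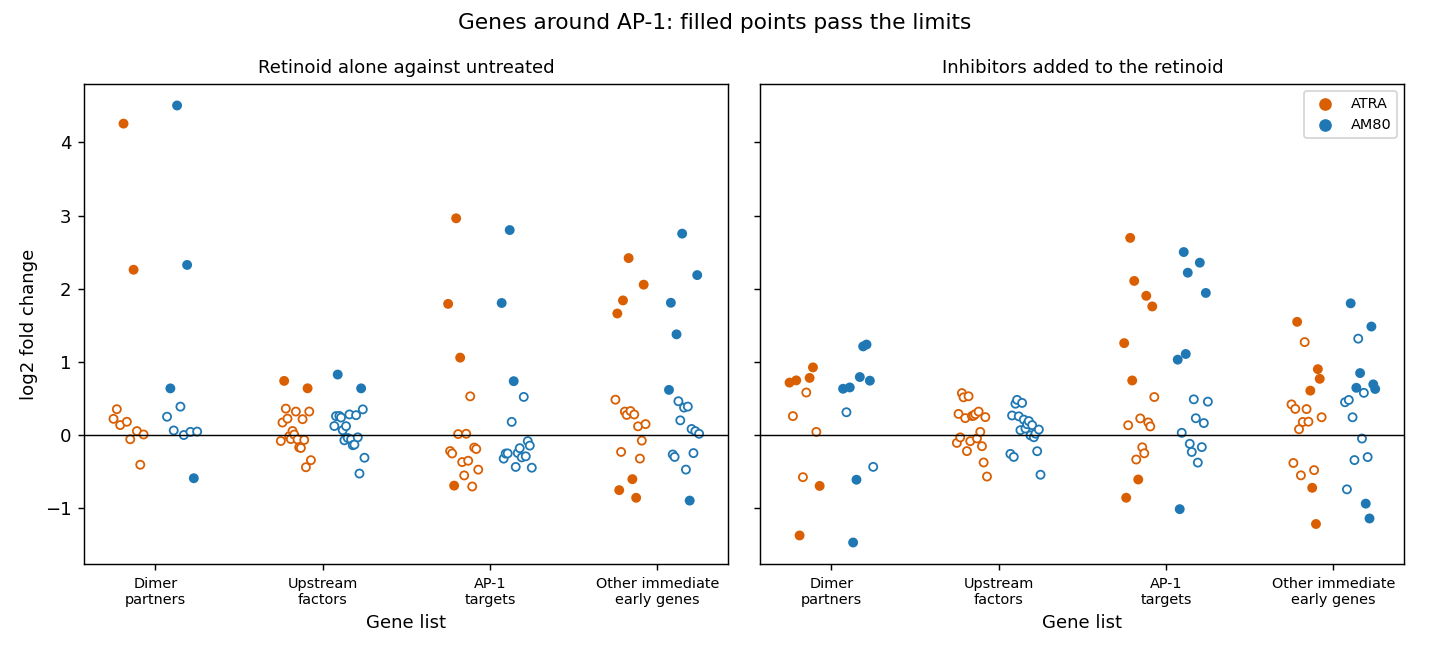
Log2 fold change (y axis) of the genes of the 4 other lists (x axis) with the retinoids alone (left) and on adding the inhibitors (right), for ATRA (orange) and AM80 (blue). Filled points passed the limits. BATF2 is the highest point on the left (4.26 and 4.51), and 0 of the 19 upstream genes passed both limits on the right. Of all genes, 8.15% and 6.81% were called higher on the right and 11.4% and 8.9% lower.

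The genes with the most similar pattern to each member were ranked by Pearson's r of log2(normalized count + 1) over the 16 libraries, which share treatments and are a description only. For FOSL2 they were IRS2 (r = 0.990), MEF2D (0.984) and HRH2 (0.982). For JUND they were CTSZ (0.981), PHC2 (0.981) and NCF1C, the last with near-identical copies, and for BATF they were CDKN2C (0.989), ALKBH2 (0.986) and ASB13 (0.984). JUN was closest to FKBP4 (0.973), CA2 and RNF167, FOSL1 to TLCD3A (0.971), C11orf24 and SCAMP2, and FOS to POLR1E (0.960), ENSG00000253177 and ST3GAL4. FOSB was closest to DNAJB1 (0.956), WBP2 and LRRC8A, JUNB to MOSPD3 (0.960), GAMT and TOM1, and BATF3 to EPHX2 (0.919), TMEM187 and AP1M1. Among the members themselves, r over the 16 libraries was highest for FOSL1 with JUN (0.938) and FOS with FOSL2 (0.915), and lowest for FOSL2 with JUND (-0.864).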

How the data were processed

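RNA-seq of 16 OCI-AML3 libraries was analysed. The signal values deposited by the authors are DESeq2-normalized counts, made on Galaxy; the submitters' processing notes name FastQC, cutadapt, STAR, featureCounts and DESeq2. The genome build, annotation and strand setting are not given in the sources used here, so identifiers were matched to GENCODE release 29 (GRCh38) for positions and exon lengths. In every library 100% of values were whole reads divided by a size factor (tolerance 0.0001). Labels and methods name different RNA and library kits.

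Genes averaging 10 or more normalized counts were fitted with limma 3.58.1 in R 4.3.3 (mean-variance trend, 1 coefficient per group, no batch given). Intervals are 95% confidence intervals. Whether replicates were separate cultures is not stated, so p-values measure the spread between libraries. The method was tested on simulated data. Alternatives were a pseudocount of 0.5 or 5, other filters, quantile or total-read scaling, edgeR 4.0.16 and DESeq2 1.42.0 on recovered reads, only the groups compared, a replicate block, libraries left out, and other limits. Python 3.11.15 with pandas 2.3.3 and matplotlib 3.10.9 was used for tables and figures.

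The members and gene lists were chosen with earlier results of these data known. Named list genes were up to 4 per list with the largest mean change on adding the inhibitors and up to 2 with the retinoids, called with both retinoids and with a mean of 50 or more in the higher group. ATF3, MAFK and the member pairs were named after their values were seen. JDP2 was also named outside this rule, since it was not called beside ATRA. The result of 1 marker list is not reported here.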

Additional observations from a re-analysis of the deposited data

Results flagged for a closer look

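BATF3 in untreated cells had 1 library far from the others. Replicate 4 measured 227 normalized counts and the other replicates 155, 162 and 163. Its gap to the next library was 0.889 of the range of the group, above Dixon's 95% critical value for 4 samples, which chance exceeds in about 1 of 20 groups. All 9 AP-1 genes were screened in this way in untreated cells, and only BATF3 was above that value. Untreated replicate 4 was also the highest untreated library for BATF (778), where the gap was 0.706 of the range and below that value. Without untreated replicate 4 and AM80 replicate 2, the log2 fold change of BATF3 was -0.25 for either combination against untreated cells and -0.55 for the AM80 combination against AM80, and it passed the fold limit in none of the comparisons run in that setting. The part of this library in these values was not tested further.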

How the results depend on the processing

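Of 3498 alternative values for the genes named, 3450 kept their side of the limits, 31 dropped below the limits, 17 passed them and 0 called values reversed. Among the 3450 were 72 values without a call that changed sign. Stricter limits were a limma adjusted p under 0.01 and a fold past 2. The members called were then 2 with ATRA, 2 with AM80 and 2 on adding the inhibitors to ATRA. Of 14643 genes, 623, 625 and 747 were called there. FOS, FOSL1, JUND or BATF dropped out of these comparisons by the stricter limit. On adding the inhibitors to AM80, 3 members and 690 genes were called, without FOSL1. Against untreated cells, 4 members were called with the ATRA combination (1573 genes) and 4 with the AM80 combination (1485 genes). FOS dropped out of both, and JUN out of the AM80 combination. For the AM80 combination against the ATRA combination, 1 member (JUN) was called with DESeq2, in a fit of the 2 groups alone, with the replicate block, and without untreated replicate 4 and AM80 replicate 2 together. Over all genes, 13, 127, 84 and 156 were called in these settings, against 0 in the main fit. Leaving out 1 library at a time gave 0 to 1 there. Replicate numbers did not pair the libraries: same-numbered libraries correlated between -0.11 and 0.19 in their deviations, 4 of 30 pairs exceeded 0.1, and 5 of 16 libraries were closest to their own number. The replicate block changed no other count of members. With a mean of 50 or more required, FOSB was not tested. Scaling to total reads shifted the median of all genes by -0.15, -0.19, -0.16 and -0.13 in the comparisons of the combinations with untreated cells and with the retinoids. FOSB rests on 14 to 83 reads per library, which limits its precision.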

Other observations

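FOS, JDP2 and BATF lie next to each other on chromosome 14, within 268 kb from the start of FOS to the end of BATF. JDP2, which encodes a repressor that pairs with JUN proteins, starts 149 kb after FOS and ends 48.3 kb before BATF. JDP2 measured 262, 227, 213 and 198 normalized counts in untreated cells, 244, 238 and 282 with ATRA, and 310.1, 259.9 and 312 with AM80. With the inhibitors it had 177, 186 and 149 beside ATRA and 201, 188 and 185 beside AM80, and every combination library lay below every library of the retinoid alone. On adding the inhibitors its log2 fold change was -0.61 beside AM80, past the limits (limma adjusted p = 3.3e-04), and -0.58 beside ATRA, just under the fold limit (adjusted p = 4.5e-04). BATF fell in the same comparisons by 1.17 and 0.97 on the log2 scale, whereas FOS showed -0.13 and -0.10 and did not pass the test. The difference between these neighbours was not tested.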
